A study of Mus musculus with 24 samples.

Results

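The genes described here encode the proteins of the cytosolic ribosome. They were taken as all genes whose only symbol in the array's probe annotation is Rpl or Rps with a number, followed by nothing or by letters among a, x, y and l and a further number, or is Rplp0, Rplp1, Rplp2 or Rpsa. The rule found 49 of the 18193 genes with a single symbol, on 105 probe sets, and the probe set of highest mean over all 24 arrays stood for each gene. Of the 49 genes, 47 passed the filter on low signals and were tested. Rps16 and Rpl3l did not pass. Rplp1, Rpl5 and Rps27a have no probe set with a single symbol in the annotation and were not analysed here.

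RNA of mouse splenic B cells was hybridised to Affymetrix arrays, with 1 array per sample. In the group named KO, the Nfatc1 allele carried loxP sites around exon 3 and Cre came from the Cd79a (mb-1) locus, which is active in B cells from early stages on, so that the allele is deleted in cells of the B lineage. The group named WT was the control. All mice were C57BL/6, with an age of 6 to 8 weeks given in the labels. Spleen cells of both genotypes were kept for 0, 3, 8 or 16 h with anti-IgM, an antibody to the antigen receptor of B cells, and enriched for B cells with beads. Each of the 8 groups had 3 biological replicates. The labels do not say whether arrays that share a replicate number came from the same mice.

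Each ribosome joins a small subunit, which holds the Rps proteins and reads the messenger RNA, to a large subunit, which holds the Rpl proteins and forms the peptide bond. Most of the proteins are needed in equal numbers, and resting lymphocytes that enter the cell cycle make more ribosomes. Many ribosomal protein mRNAs of mammals begin with a C followed by a run of pyrimidines, the 5′ terminal oligopyrimidine (TOP) tract, through which mTOR signalling governs how well they are translated. Control at that step changes the protein made and need not change the amount of mRNA, which is all that an array measures. Several ribosomal proteins also have paralogs, such as Rps27l, Rpl22l1 and Rpl39l, that can take the place of the main form or have other roles.

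The start sites of the members in the RefSeq annotation were searched for the letters of that TOP signature. RefSeq promoter sequences (build GRCm38.p6) were at hand for 43 of the 49 members. Rpl7, Rpl8, Rps14, Rps20, Rps29 and Rps4l were not in the table. A C at the annotated first base followed by at least 4 more bases that are each C or T, read on the strand of the gene, was present in 8 of the 43 members (18.6%) and in 813 of all 27025 genes of the table (3.01%). A run of at least 8 pyrimidines within the 20 bases around the start was present in 15 of the 43 members (34.9%), against 8.71% of all genes. The 8 members were Rpl14, Rpl35, Rpl38, Rplp2, Rps10, Rps18, Rps27 and Rps6. The match is a description of letters at annotated starts, which were not measured here. It depends on the exact base annotated as the first. Rpl27a, for example, has a run of 20 pyrimidines over its start but no match, since its first base is T. The share of matches is therefore not the share of members whose mRNA carries a TOP tract.

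The windows below show 4 members with this match at the annotated start, Rps6 (chr4:86857353-86857382, minus strand), Rplp2 (chr7:141447636-141447665, plus strand), Rps18 (chr17:33955651-33955680, minus strand) and Rpl14 (chr9:120571502-120571531, plus strand). Beside them stand 4 members without the match at the annotated start, chosen because the results turn on them. These are Rps27l (chr9:66946071-66946100, plus strand, the first of 2 annotated starts), Rpl7l1 (chr17:46782642-46782671, minus strand), Rps25 (chr9:44407699-44407728, plus strand) and Rpl12 (chr2:32961697-32961726, plus strand). Each window runs 5′ to 3′ over 30 bases with the first transcribed base as the sixteenth letter, and capitals mark the pyrimidine run that includes that base.
Rps6: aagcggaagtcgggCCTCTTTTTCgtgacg
Rplp2: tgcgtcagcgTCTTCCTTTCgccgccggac
Rps18: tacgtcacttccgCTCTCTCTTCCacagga
Rpl14: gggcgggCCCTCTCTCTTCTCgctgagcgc
Rps27l: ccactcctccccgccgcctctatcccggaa
Rpl7l1: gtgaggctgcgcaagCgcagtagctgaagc
Rps25: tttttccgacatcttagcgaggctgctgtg
Rpl12: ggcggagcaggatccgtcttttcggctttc
Rps27l, Rpl7l1, Rps25 and Rpl12 were shown because they were called at 3 h in both genotypes. These 8 windows therefore cannot show whether calls go with the tract. Among the members with the match, Rpl14 was called in comparisons below, and so was Rps27 in WT at 16 h, which is not shown. Whether the tract goes with a call was not tested.

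All values are log2 of the authors' MAS5 signals, and every array was scaled to a trimmed mean signal of 500, so that a change in total RNA per cell does not appear in them. In such bulk samples, fewer cells of a type and less RNA per cell cannot be told apart. The 4 arrays of WT replicate 2 differed from the other 20 in expression of male type (Eif2s3y 10.96 to 11.50, Xist 1.81 to 4.29). KO replicate 2 at 8 h and 16 h had the highest background of all arrays, with a 40th percentile of 6.24 and 6.43 against 5.38 to 6.01 on the others. None of the 5 Nfatc1 probe sets was lower in KO throughout, and 1 of them was higher in KO at all 4 times with no overlap (at 8 h 12.29 to 12.71 in WT and 13.07 to 13.28 in KO). None is known to lie in exon 3, so they do not check the deletion, and the genotypes are as labelled. The mean of the B cell markers was 11.51 to 13.49 over the arrays, that of T cell markers 4.17 to 6.15, of macrophage markers 7.45 to 9.35 and of neutrophil markers 4.78 to 9.15. From 0 h to 16 h, the mean of the B cell markers went from 13.2 to 11.6 in WT and from 13.3 to 11.9 in KO, that of NK cell markers from 6.89 to 5.02 and from 7.34 to 4.06, and that of neutrophil markers from 8.83 to 6.86 and from 7.29 to 7.67. The part of these markers in the members' results was not tested.

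The members fell into 35 of high mean signal, called bright below, and 14 others. The level that separates them was set after the values had been seen and lies in a gap between Rps27l at 12.73 and Rpl22l1 at 14.01. Of the bright members, 18 belong to the large and 17 to the small subunit. The brightest were Rps29, a small zinc-binding protein of the small subunit, with a mean of 15.69, Rps3a1 at 15.65 and Rpl13a at 15.57, close to the highest value on each array, which was 15.49 to 16.21. The dimmest were Rps16 at 1.35, Rpl3l, the form of Rpl3 found in heart and skeletal muscle, at 4.20, and Rpl39l at 6.13. Signals of different probe sets depend on the probes and do not rank the amounts of RNA.

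After 3 h of anti-IgM, 4 members rose in control B cells and none fell, while the bright members kept close to their level at 0 h. The 4 were Rps27l, Rpl7l1, Rps25 and Rpl12. They were 4 of the 47 tested members, where limma called 38.3% of all 14318 genes, 17% as higher and 21.3% as lower. All 4 are read on probe sets below the bright level, with means of 12.73, 11.44, 11.71 and 11.52. Rps25 and Rpl12 have 1 probe set each. Of 19 dimmer probe sets of genes with a bright one, 9 also rose in WT at 3 h and 2 fell. Whether the 4 rises go with the gene or with the level of its probe set was not tested. The median change of the 47 members was -0.12, and that of all genes was -0.14. In KO cells the same 4 members rose and none fell, again with 38.3% of all genes called, 16.6% as higher and 21.7% as lower, and medians of -0.09 for the members and -0.11 for all genes. The sign of these medians depends on the scaling, since with arrays shifted to a common median they were 0.12 for the members and 0.10 for all genes in WT. The absence of lower calls depends on it too: with arrays shifted to the median of 157 other genes of high signal, 4 members were higher and 20 lower in WT, and 4 higher and 30 lower in KO.

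**Figure D1:**
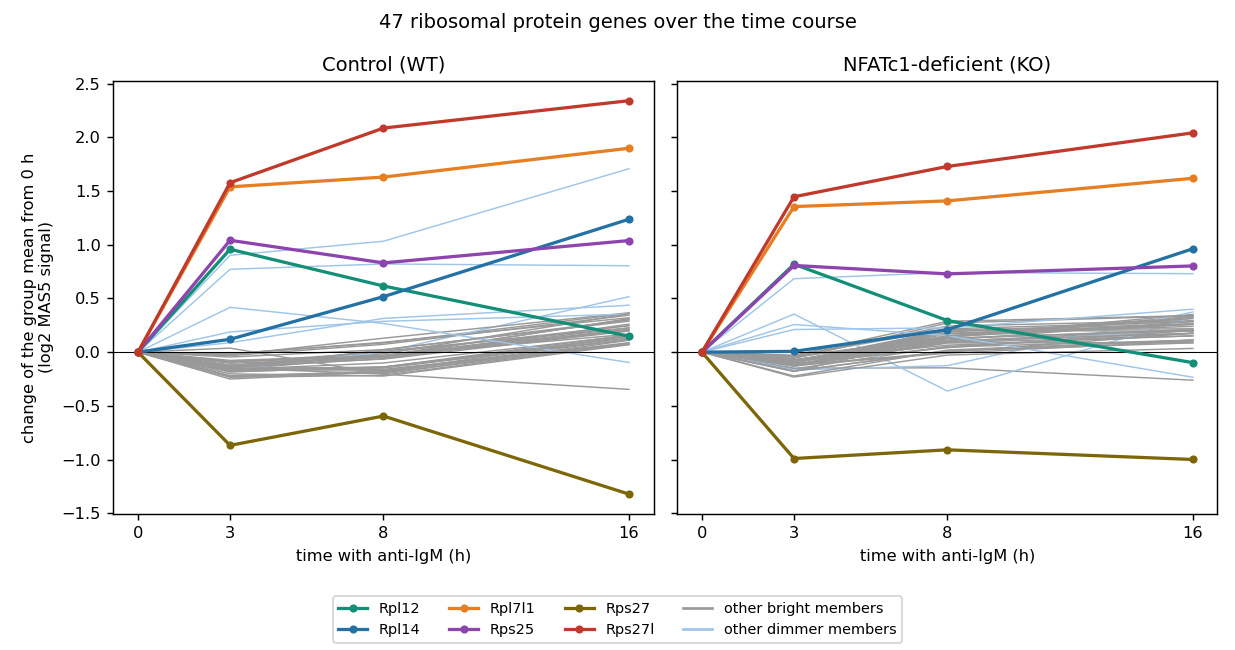
Change of each group mean from 0 h (log2 MAS5 signal, vertical axis) against hours with anti-IgM for the 47 tested members in WT (left) and KO (right), with 1 line per gene. Rps27l and Rpl7l1 lie highest at every stimulated time, Rps27 lies lowest, and the bright members (grey) stay between -0.35 and 0.37 in both panels.

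Rps27l, the paralog of Rps27 known in mouse and human cells as a target of Trp53, gave the largest rise at every time. Its values in WT were 11.34, 11.002 and 11.35 at 0 h, 13.03, 12.73 and 12.66 at 3 h, 13.39, 13.34 and 13.21 at 8 h, and 13.65, 13.67 and 13.38 at 16 h. In KO they were 11.38, 11.37 and 11.54 at 0 h, 12.93, 12.89 and 12.80 at 3 h, 13.23, 13.15 and 13.09 at 8 h, and 13.59, 13.46 and 13.36 at 16 h. Every stimulated array lay above every unstimulated one in both genotypes. At 3, 8 and 16 h the rise in WT was 1.58, 2.09 and 2.34 (SE 0.12), the last a 5.06-fold difference with an adjusted p of 3.47e-13 by limma. In KO it was 1.45, 1.73 and 2.04 with the same SE. All 3 probe sets of Rps27l moved alike, with changes of 1.58, 1.53 and 1.52 in WT at 3 h.

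Its partner Rps27, a small subunit protein whose annotated start has the TOP match, went the other way on its only probe set. The WT values were 10.79, 10.49 and 9.65 at 0 h and 8.40, 8.92 and 9.65 at 16 h, so the groups met at 9.65. The fall of 1.32 (SE 0.40) passed the test in WT at 16 h with an adjusted p of 0.0103. In KO at 16 h the difference was -0.999 (SE 0.40), from 10.01, 10.81 and 9.81 to 8.35, 9.71 and 9.58, and the adjusted p was 0.0565. The call in WT was lost without replicate 1 of WT at 0 h or at 16 h, and without the 4 arrays of WT replicate 2 the difference was -1.19 with an adjusted p of 0.0825.

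Rpl7l1, which resembles the large subunit protein Rpl7 and whose yeast counterpart takes part in assembly of that subunit, rose at every stimulated time. The WT values were 10.09, 10.12 and 10.24 at 0 h, 11.57, 11.59 and 11.91 at 3 h, 11.62, 11.65 and 12.07 at 8 h, and 11.94, 12.05 and 12.16 at 16 h. The KO values were 10.49, 9.99 and 10.63 at 0 h, 11.68, 11.64 and 11.86 at 3 h, 11.61, 11.67 and 12.05 at 8 h, and 11.90, 11.83 and 12.24 at 16 h. No stimulated array overlapped the unstimulated ones. At 3, 8 and 16 h the rise was 1.54, 1.63 and 1.90 in WT and 1.36, 1.41 and 1.62 in KO, with an SE of 0.16 and adjusted p-values of 2.92e-07 or less. Its other probe sets changed by 1.03 and 1.02 in WT at 3 h. Rpl7 itself, a bright member, differed from 0 h by -0.12, -0.04 and 0.23 in WT, none of which passed the test.

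Rps25, a small subunit protein that some viral mRNAs need for internal initiation in human and yeast cells, rose about as much at each time. It was 11.04, 10.88 and 11.02 in WT at 0 h, 12.16, 11.92 and 11.99 at 3 h, 11.81, 11.98 and 11.65 at 8 h, and 12.09, 11.95 and 12.02 at 16 h. The KO values were 11.31, 11.11 and 10.98 at 0 h, 12.10, 11.89 and 11.83 at 3 h, 11.94, 11.94 and 11.70 at 8 h, and 11.96, 11.94 and 11.90 at 16 h. The stimulated arrays all lay above the unstimulated ones of their genotype. The rise was 1.04, 0.83 and 1.04 in WT and 0.81, 0.73 and 0.80 in KO (SE 0.11 each), with adjusted p-values of 1.43e-05 or less.

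Rpl12, which sits at the base of the stalk of the large subunit together with Rplp0, peaked at 3 h. Its WT values were 10.91, 11.04 and 11.23 at 0 h, 12.11, 11.71 and 12.23 at 3 h, 11.82, 11.64 and 11.57 at 8 h, and 11.44, 10.88 and 11.30 at 16 h. In KO they were 11.16, 11.42 and 11.29, then 12.17, 11.93 and 12.23, then 11.70, 11.41 and 11.64, and last 11.30, 10.79 and 11.48. The 16 h arrays overlapped those at 0 h in both genotypes. The rise at 3 h was 0.96 in WT (adjusted p 6.14e-05) and 0.82 in KO (adjusted p 3.66e-04), each with an SE of 0.17. At 8 h it was 0.62 in WT, which passed the test, and 0.29 in KO, with an adjusted p of 0.211.

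**Figure D2:**
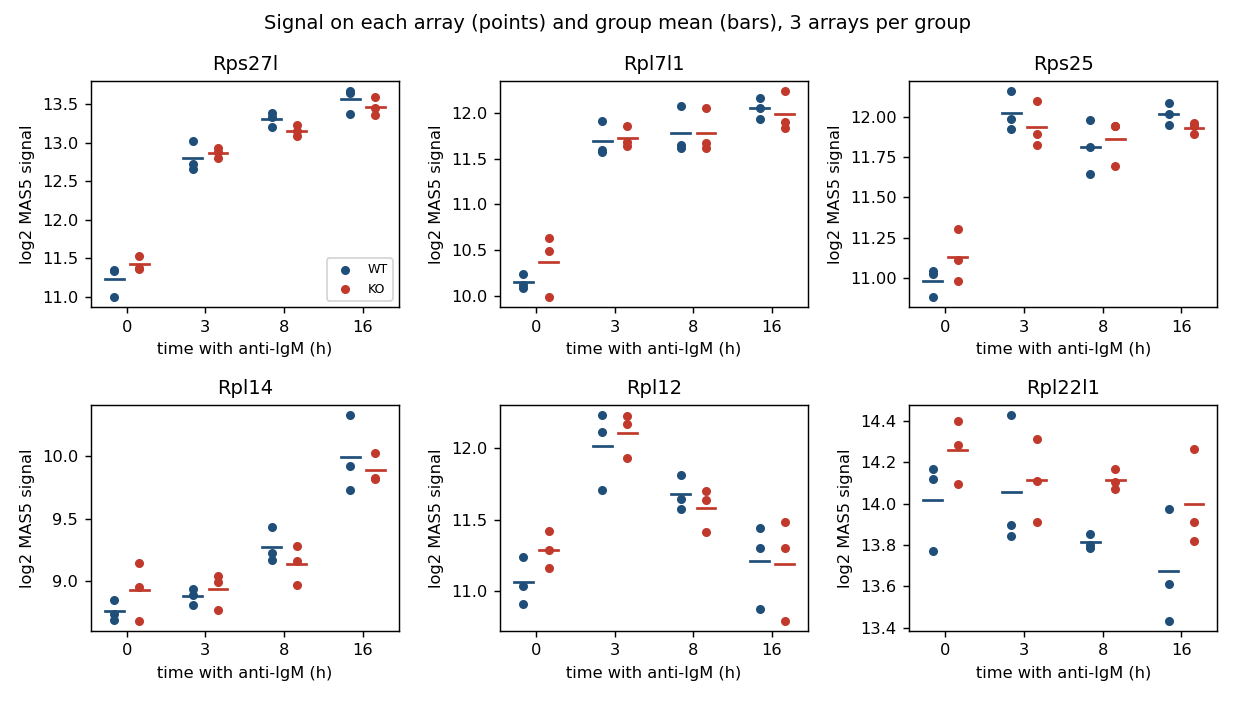
Log2 MAS5 signal of 6 members on every array (points, 3 per group) with group means (bars), WT in blue and KO in red, against hours with anti-IgM. Rps27l, Rpl7l1 and Rps25 are above their 0 h values on all stimulated arrays, Rpl12 returns to about its 0 h values at 16 h, and Rpl14 is highest at 16 h. For Rpl22l1 the times overlap within each genotype, and the genotypes are apart only at 8 h.

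At 8 h, 5 members were higher than at 0 h in WT and none was lower, with 33.4% of all genes called (17.7% higher and 15.7% lower). These were the 4 named above and Rpl14, a large subunit protein, which rose by 0.52 (SE 0.16, adjusted p 0.0115). In KO 3 members were higher, namely Rps27l, Rpl7l1 and Rps25, with 31.7% of all genes called (17.3% higher and 14.4% lower). The median change of the 47 members at 8 h was -0.04 in WT and 0.14 in KO, beside -0.04 and 0.02 for all genes. Without the 2 arrays of highest background the KO median was 0.03. With arrays shifted to the median of the other bright genes, 3 members were higher and 16 lower in WT and 3 higher and 4 lower in KO, and Rpl12 and Rpl14 were no longer called in WT (0.40 and 0.30). The Rpl14 call at 8 h was lost without replicate 3 of WT at 8 h, and without the 4 arrays of WT replicate 2 the difference was 0.53 with an adjusted p of 0.0655.

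At 16 h, more members were called, and most of the added ones had small changes. In WT 8 members rose and Rps27 fell, with 39.4% of all genes called (20.9% higher and 18.5% lower), and in KO 8 rose and none fell, with 35.9% of all genes called (19.4% higher and 16.4% lower). The median change of the members was 0.21 in WT and 0.22 in KO, against 0.05 and 0.08 for all genes. With quantile normalization the members lay below all genes, with 0.065 against 0.116 in WT and 0.046 against 0.105 in KO. With a common median per array the WT values were 0.303 and 0.135. Leaving out 1 array at a time moved the count of called members from 6 (without replicate 1 of WT at 0 h) to 14 in WT and from 5 (without replicate 1 of KO at 16 h) to 21 in KO, both highest counts without replicate 3 of KO at 16 h. Without the 2 arrays of highest background the KO median was 0.055, while the calls of Rps27l, Rpl7l1, Rps25 and Rpl14 held.

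Rpl14 rose late. Its WT values were 8.74, 8.69 and 8.85 at 0 h, 8.93, 8.89 and 8.81 at 3 h, 9.22, 9.17 and 9.43 at 8 h, and 9.73, 9.92 and 10.33 at 16 h. In KO they were 8.68, 8.96 and 9.14, then 8.77, 9.04 and 8.99, then 9.17, 8.97 and 9.28, and at 16 h 9.83, 9.82 and 10.02. In both genotypes all 16 h arrays lay above all arrays of the earlier times. The rise at 16 h was 1.24 in WT (2.36-fold, adjusted p 5.42e-07) and 0.96 in KO (1.95-fold, adjusted p 2.27e-05), with an SE of 0.16.

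Rpl39l is a paralog of Rpl39, a small protein at the exit of the peptide tunnel, and is known in mouse mainly from testis. It had 5.45, 5.28 and 5.07 in WT at 0 h and 6.79, 6.77 and 7.36 at 16 h, with no overlap. Since the 0 h mean lay below the filter level of 5.81, the rise is given as at least 1.16 on the log2 scale, beside a fitted difference of 1.71 and an adjusted p of 0.0155. In KO the 16 h values of 5.10, 6.74 and 7.02 overlapped the 0 h values of 4.94, 5.396 and 6.34. The call in WT was lost without replicate 3 of WT at 16 h, without the 4 arrays of WT replicate 2 (1.82, adjusted p 0.0682) and with the shift to the other bright genes (1.34, adjusted p 0.0620). Rpl39 itself spread from 6.28 to 9.28 within WT at 0 h and was called at no time.

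Rpl37, a zinc-binding protein of the large subunit, rose in WT at 16 h by 0.52 (SE 0.18, adjusted p 0.0222), from 12.26, 12.20 and 12.13 to 12.62, 12.80 and 12.72. The groups did not overlap. In KO the values at 16 h were 12.59, 12.84 and 12.44 against 11.91, 12.42 and 12.40 at 0 h, a difference of 0.37 with an adjusted p of 0.108. Without the 4 arrays of WT replicate 2 the WT difference was 0.47 with an adjusted p of 0.127. The call was also lost without WT replicate 2 or 3 at 0 h or at 16 h, with quantile normalization (0.299, adjusted p 0.223) and with the shift to the other bright genes (0.145, adjusted p 0.569).

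Among the bright members, the calls at 16 h were Rpl10a, which forms the other flexible stalk of the large subunit, and Rps2 in WT, and Rpl10a, Rplp0, Rpl11 and Rpl22 in KO. Rpl10a had 14.98, 14.96 and 15.01 in WT at 0 h and 15.29, 15.39 and 15.20 at 16 h, a rise of 0.31 (SE 0.11, adjusted p 0.0241). In KO it rose by 0.29, from 15.14, 15.03 and 15.03 to 15.31, 15.53 and 15.22. The groups did not overlap in either genotype. Rps2, near the channel by which mRNA enters the small subunit, rose in WT by 0.37 (adjusted p 0.0489) from 14.94, 14.97 and 15.0001 to 15.48, 15.42 and 15.12. In KO, Rplp0, the core of the stalk that recruits elongation factors, rose by 0.32, Rpl11, which binds Mdm2 as part of the 5S particle, by 0.33, and Rpl22, an RNA-binding protein needed for T cell development in mouse, by 0.35, with adjusted p-values of 0.0240 to 0.0393. Without the 4 arrays of WT replicate 2 the WT differences of Rpl10a and Rps2 were 0.25 and 0.32 and neither passed the test (adjusted p 0.221 and 0.247), and the call of Rps2 held with only 6 of the 24 arrays left out in turn. Without the 2 arrays of highest background the 4 KO differences were 0.20, 0.22, 0.22 and 0.28 and none passed the test. Quantile normalization also ended these 4 calls, with 0.103 for Rpl10a, 0.133 for Rplp0 and Rpl11 and 0.168 for Rpl22 (adjusted p 0.122 to 0.401), and that of Rpl10a in WT (0.149, adjusted p 0.194). When arrays were shifted so that the 157 other genes above the bright level kept their median, the 16 h differences of Rpl10a, Rps2, Rplp0, Rpl11 and Rpl22 turned to between -0.122 and -0.0051.

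On the probe sets that stand for them, the bright members had small differences from 0 h and moved together. These probe sets lie near the top of the range, and Rps29, at 16.05 on replicate 1 of WT at 16 h, was the highest value of that array. Whether signals at this level still follow the amount of RNA, and so whether a change would show, was not tested. Their differences from 0 h lay between -0.25 and 0.04 in WT at 3 h, between -0.22 and 0.13 at 8 h, and between -0.35 and 0.37 at 16 h. None of the 35 was called at 3 h or 8 h in either genotype. The median change of the 18 large subunit members was -0.10, -0.03 and 0.23 in WT, and that of the 17 small subunit members was -0.16, -0.15 and 0.13. As deviations from the group means, the bright members moved together from array to array, with a median Pearson r of 0.886 between members over the 24 arrays, which share the scaling of each array. Rpl22l1 was the exception named after its value was seen, with an r of -0.12 to the median of the other bright members.

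The median of the 35 bright members on each array shows where these small shifts lie. In WT it was 15.08, 15.09 and 15.16 at 0 h, 15.14, 14.96 and 14.92 at 3 h, 15.18, 15.05 and 15.03 at 8 h, and 15.48, 15.41 and 15.20 at 16 h. In KO it was 15.29, 15.12 and 15.03 at 0 h, 15.20, 15.05 and 14.99 at 3 h, 15.23, 15.50 and 15.21 at 8 h, and 15.40, 15.73 and 15.11 at 16 h. In WT all 16 h arrays were above all 0 h arrays, while in KO the times overlapped, with the 2 highest medians on the 2 arrays of highest background. Summed, the members made up 3.31% of the total signal in WT at 3 h and 4% in KO at 16 h, the lowest and the highest of the 8 group means. The 157 other genes above the same level had group medians of 13.82 in WT at 0 h, 13.99 at 3 h and 14.19 at 16 h.

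**Figure D3:**
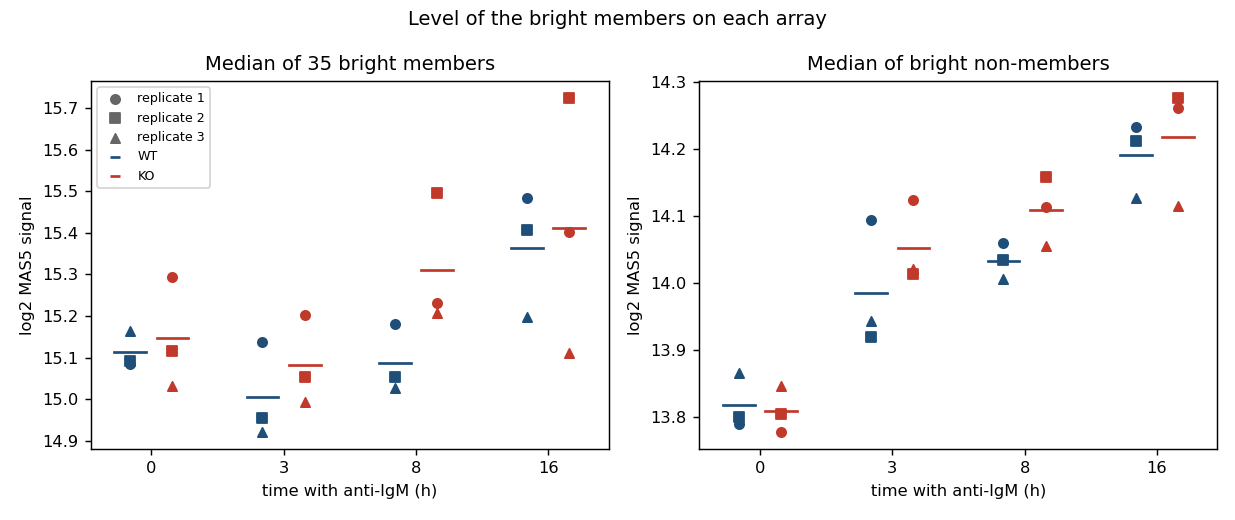
Median log2 MAS5 signal of the 35 bright members (left) and of the 157 other genes above the bright level (right) on each array, against hours with anti-IgM, with WT in blue, KO in red, a symbol for each replicate number and bars for group means. The bright members' group means run from 15.01 to 15.41, with KO replicate 2 highest at 8 h and 16 h, and the other genes' means run from 13.82 to 14.19 in WT.

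Members named for their role were mostly without a call. Rps6, the small subunit protein phosphorylated by S6 kinases, differed from 0 h by 0.19, 0.29 and 0.35 in WT, with adjusted p-values of 0.117 or more, and by 0.40 in KO at 16 h (adjusted p 0.0788). Rplp2, another stalk protein, differed by -0.13, -0.06 and 0.20 in WT. Rpsa, the small subunit protein also known as the laminin receptor, went from 15.20, 15.22 and 15.19 in WT at 0 h to 15.68, 15.67 and 15.34 at 16 h, a difference of 0.36 with an adjusted p of 0.103. In KO it went from 15.55, 15.29 and 15.04 to 15.61, 16.02 and 15.19, and the groups overlapped. Rps4x and its relative Rps4l differed from 0 h by at most 0.42 in size in both genotypes and were called at no time. Rpl22l1, which Rpl22 holds down in mouse cells, stood at 14.17, 13.77 and 14.12 in unstimulated WT cells and 13.61, 13.43 and 13.98 at 16 h, a difference of -0.35 with an adjusted p of 0.0963, and the groups overlapped.

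The steps between stimulated times, averaged over both genotypes, separate early from late changes. From 3 h to 8 h, Rps27l rose by 0.40 (SE 0.08, adjusted p 6.16e-04) and Rpl14 by 0.30 (adjusted p 0.0422), and Rpl12 fell by 0.43 (SE 0.12, adjusted p 0.00720), with 30% of all genes called (19.9% higher and 10.1% lower). From 8 h to 16 h, 5 members rose and 1 fell, with 15.6% of all genes called (7.84% higher and 7.78% lower). Rpl14 rose by 0.74 (SE 0.11, adjusted p 4.40e-05), Rpl37 by 0.51, Rps27l and Rpl22 by 0.28 each and Rpl10a by 0.26, and Rpl12 fell by a further 0.43. The Rpl22 call held in only 4 of 15 other settings, with a lowest difference of 0.0005. It was lost with means over probe sets and with probe sets without the suffixes s or x taken first. The latter choice also ended the Rps27l call. The median of the members was 0.13 in the first step and 0.18 in the second, beside 0.11 and 0.05 for all genes. With quantile normalization the members lay below all genes, with 0.029 and 0.005 against 0.055 and 0.043, and the calls of Rpl14 in the first step and of Rps27l, Rpl22 and Rpl10a in the second were lost. Leaving out replicate 3 of KO at 16 h raised the count of called members in the second step to 15, and leaving out replicate 2 of WT at 16 h lowered it to 2. Without the 4 arrays of WT replicate 2 the rise of Rpl14 was 0.73 and the only call of the second step, and its rise of 0.33 in the first step had an adjusted p of 0.0790.

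Probe sets of the same gene did not always move alike. Of the members with a bright probe set, 12 had 19 further probe sets that passed the filter with a mean below the bright level. In WT at 3 h, 9 of these 19 rose and 2 fell, in a fit over 26671 probe sets of which 16.3% rose and 19.1% fell. Their median change was 0.70, while the 30 other bright probe sets of 17 genes had a median of -0.15 and no call. At 16 h, 10 of the 19 dimmer ones rose and 1 fell, and 8 of the 30 bright ones rose, beside 18.5% of all probe sets that rose and 18.8% that fell.

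Rps18 shows the contrast most fully. Its brightest probe set and 2 others of a mean near 15 were not called in WT at 3 h. Its 3 dimmer ones rose by 1.49, 1.64 and 1.44, from means of 7.36, 6.81 and 6.29 at 0 h to 8.85, 8.45 and 7.73. Dimmer probe sets of Rps24, Rps10, Rps9 and Rpl35 rose as well, by 1.66, 1.72, 1.22 and 1.26, while the brightest ones of these 4 genes had -0.18, -0.16, -0.23 and -0.01 and were not called. Those of Rpl13a fell by 0.50 and 0.71. These single probe sets were picked after their values had been seen. Where in the transcripts these probes lie is not given in the sources used here, so what each of them reads was not tested. For these genes the call depends on the probe set.

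**Figure D4:**
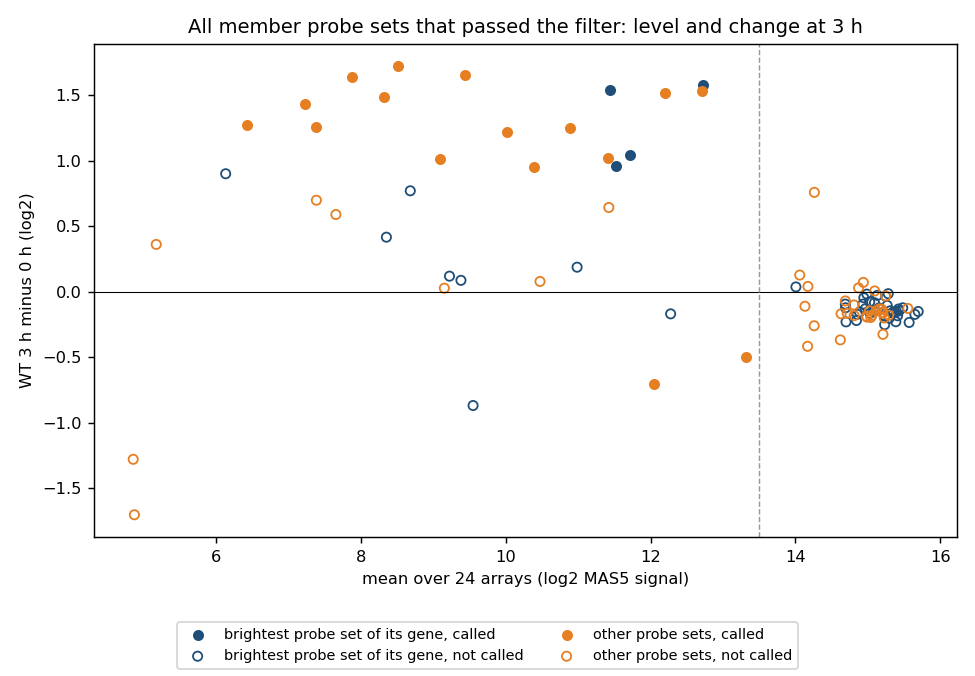
Change in WT from 0 h to 3 h (log2, vertical axis) of every member probe set that passed the filter, against its mean over 24 arrays (log2 MAS5 signal). Filled points were called by limma, blue marks the probe set that stands for its gene, and the dashed line marks the bright level, to the right of which no probe set was called.

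The genes that build ribosomes, a list with the members left out, gave other values under the same stimulation, in which 17% of all genes were called higher and 21.3% lower in WT at 3 h, and 20.9% and 18.5% at 16 h. Of 45 tested genes for ribosome assembly, 44 rose in WT at 3 h with a median change of 1.797, and 45 rose at 16 h with a median of 1.60. Among these, Polr1b, a subunit of RNA polymerase I, rose by 3.07 at 3 h, Ncl, the nucleolar protein nucleolin, by 1.43 and Fbl, which methylates ribosomal RNA, by 1.62. Of 76 mitochondrial ribosomal protein genes, 41 rose and 5 fell in WT at 3 h, and 70 rose and none fell at 16 h, with medians of 0.444 and 1.075. The members' medians at the same times were -0.12 and 0.21. Most members are read there on bright probe sets near the top of the range. The 19 dimmer probe sets of 12 of these genes had medians of 0.70 and 0.82, above the members' medians and below those of the assembly genes. The size of the contrast with the assembly genes therefore depends on the probe set. Among 14 tested RNAs outside the members known to carry a TOP tract, which include the non-coding Gas5 and the ribosomal protein gene Fau, 3 rose and 1 fell at 3 h and 7 rose at 16 h, with medians of 0.01 and 0.32. Of 15 tested mTOR and MYC regulators, 7 rose and 1 fell at 3 h, among them Myc by 1.76 and Larp1, a protein that binds TOP mRNAs, by 1.93.

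Deficiency for NFATc1 went with no called difference in any member. By limma, 0 of the 47 members passed the test for KO minus WT averaged over the 4 times, where 1.21% of all genes did, and 2 had an unadjusted p under 0.05. At 0, 3, 8 and 16 h the count was 0 as well, with 0.0349%, 0.0559%, 0.0978% and 0.615% of all genes called and 0, 0, 3 and 0 members at an unadjusted p under 0.05. The test of the genotype by time interaction called 0 members and 0.014% of all genes, with no member at an unadjusted p under 0.05. The median KO minus WT difference of the members was 0.081 averaged over the times, against 0.017 for all genes. With quantile normalization it was 0.008 against 0.014, and without the 2 arrays of highest background it was 0.027. The 95% intervals of the averaged difference reached at most 0.286 from zero in either direction for all bright members other than Rpl22l1. These intervals take the 12 arrays of each genotype as independent. If arrays of the same replicate number are linked over the times, the intervals are too narrow and set no bound.

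Rpl22l1 had the smallest p of the members in the averaged comparison. It was 14.29, 14.40 and 14.10 in KO at 0 h, 14.31, 13.91 and 14.11 at 3 h, 14.07, 14.17 and 14.11 at 8 h, and 13.91, 13.82 and 14.27 at 16 h. In WT it was 14.17, 13.77 and 14.12, then 14.43, 13.84 and 13.90, then 13.86, 13.80 and 13.78, and last 13.61, 13.43 and 13.98. The groups separated at 8 h and overlapped at the other times. The averaged difference was 0.23 (95% interval 0.07 to 0.40), with an unadjusted p of 0.00844 and an adjusted p of 0.231. Rpl10a followed with 0.12 (adjusted p 0.469).

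The stalk protein Rplp0 was the only bright member with a negative averaged difference, -0.10 (SE 0.06, adjusted p 0.689). Under quantile normalization it was -0.19 with an adjusted p of 0.0343, the only call of a member between the genotypes in any setting run. Rps4l had the highest difference, 0.45 (95% interval -0.04 to 0.95), and Rpl39 the lowest, -0.36 (-0.99 to 0.27). At 0, 3, 8 and 16 h the members' median difference was 0.044, 0.055, 0.206 and 0.037. Without the 2 arrays of highest background it was 0.126 at 8 h and -0.109 at 16 h, and with quantile normalization 0 at 8 h and 0.001 at 16 h.

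**Figure D5:**
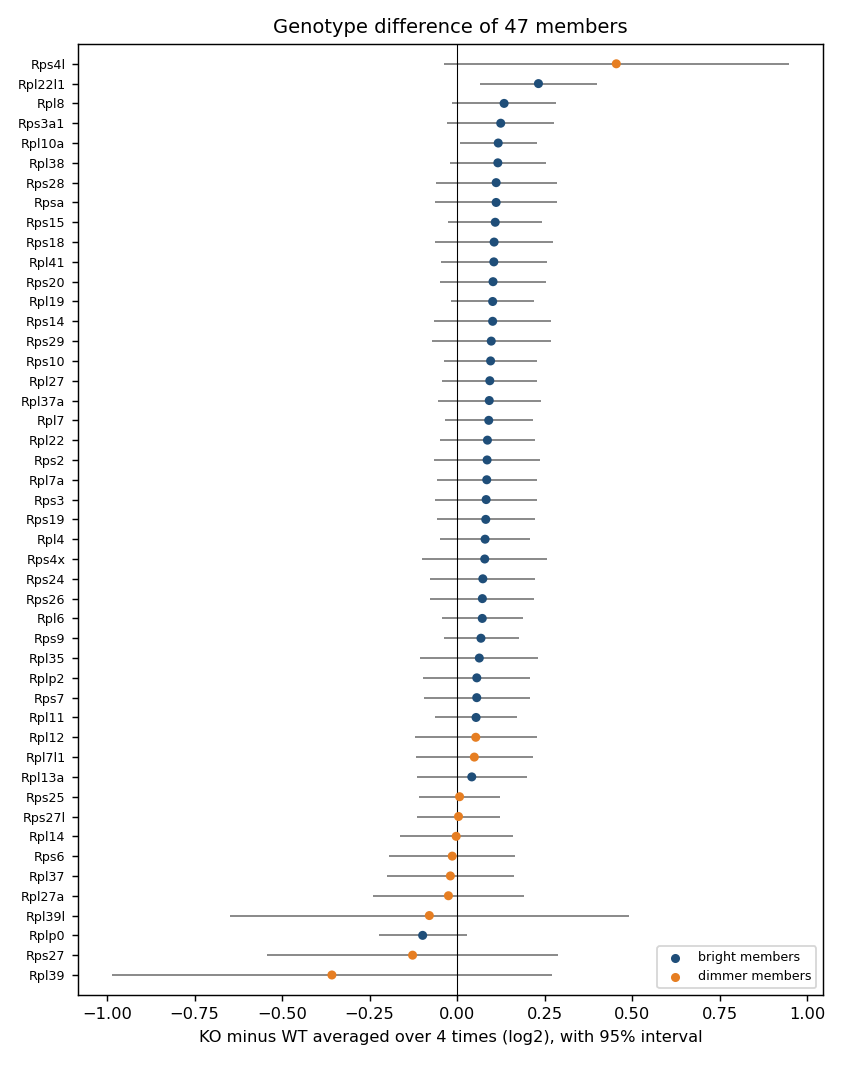
KO minus WT difference averaged over 4 times (log2 MAS5 signal, points) with limma's 95% interval (lines) for the 47 tested members, ordered by size, bright members in blue and the others in orange. The points run from -0.36 for Rpl39 to 0.45 for Rps4l, most bright members lie between 0.04 and 0.13, and no member passed the test after adjustment.

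For the 5 members with the steadiest calls under stimulation, the size of the rise was compared between the genotypes directly. By this test 0, 0 and 0.021% of all genes were called at 3, 8 and 16 h, and 0 of the 47 members. For Rps27l the KO rise minus the WT rise was -0.13, -0.36 and -0.30, and the unadjusted p at 8 h was 0.0394 with an adjusted p of 0.999. The differences for Rpl7l1 were -0.18, -0.22 and -0.28, those for Rps25 were -0.23, -0.10 and -0.24, those for Rpl12 were -0.14, -0.32 and -0.25, and those for Rpl14 were -0.11, -0.31 and -0.27. All these differences were negative, but they rest on the same 0 h arrays of each genotype, and none passed the test. Other members called at 16 h had differences of either sign, such as Rpl11 with 0.05, 0.14 and 0.09, Rpl22 with 0.03, 0.18 and 0.04, and Rpl10a with 0.01, 0.14 and -0.02.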

How the data were processed

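RNA of mouse splenic B cells was measured on 24 arrays, grouped by genotype and time as labelled. The deposited values are log2 of MAS5 signals, per the submitters' processing notes, which give no version, and per the values: low signals have 1 decimal (100% within 0.002) and every array has a mean signal of 500 after trimming 2% at each end. Background correction and summary of probes were the authors' work, and further settings are not given in the sources used here. Detection calls were not analysed here.

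Probe sets above the 40th percentile of their own array in at least 3 arrays were kept, and the one with the highest mean stood for each gene, leaving 14318 genes. Left out were 932 probe sets with several symbols and 9160 not listed in the annotation. A linear model of 8 group means was fitted in limma 3.58.1 (R 4.3.3), with 16 residual and 6.79 prior degrees of freedom and a trended prior. Calls needed an adjusted p under 0.05 (Benjamini-Hochberg, over all genes). Fold changes are 2 to the power of log2 differences, and standard errors (SE) are limma's. The fit was tested on simulated data. The number of arrays limits the precision.

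Members and lists were chosen with earlier results of these data known. The naming rule takes called members (up to 8 each way per WT contrast and 5 per step), members of set roles, paralogs, and the 3 brightest and 3 dimmest. Rpl10a between genotypes, the bright calls in KO and single probe sets were chosen after their values were seen.

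Arrays with the same replicate number and genotype at different times correlated in their deviations from the group means with a lowest r of 0.02, and 16 of 36 were above 0.1. For the same time in different genotypes the lowest was 0.016 and 3 of 12 were above 0.1. Within a genotype, the median r was 0.094 for pairs of the same number and -0.048 for pairs of different numbers. Of these 72 pairs of different numbers, 0 were above 0.1. The deviations of the 3 arrays of a group sum to 0, so a positive r for the same number pulls the others below 0. The values for different numbers are therefore not separate support for a link. WT replicate 2 was also of male type at every time, unlike the other arrays. The r values for the same number and the male type point to a link between arrays of the same number over time, which the labels do not state. The main model did not pair arrays and so leaves out such a link. Alternatives were other scalings, filters, choices of probe set, blocks for the replicate number, only the compared groups, an untrended prior, a test against 1.2-fold, and leaving out each array.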

Additional observations from a re-analysis of the deposited data

How the results depend on the processing

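The rises of Rps27l, Rpl7l1 and Rps25 in all 6 comparisons with 0 h, of Rpl12 at 3 h and of Rpl14 at 16 h in both genotypes kept direction and call in all 15 other settings and with each of the 24 arrays left out. Rps25, Rpl12 and Rpl14 have 1 probe set each, so settings that choose or average probe sets could not change their differences. The counts of called members moved more. In the order WT at 3, 8 and 16 h, KO at 3, 8 and 16 h, 8 h minus 3 h, and 16 h minus 8 h, leaving out each array gave 4 to 5, 4 to 5, 6 to 14, 4 to 5, 3 to 4, 5 to 21, 2 to 5, and 2 to 15 calls. The highest counts of 14, 21 and 15 came without replicate 3 of KO at 16 h, and the lowest of 6 and 5 without replicate 1 of WT at 0 h and of KO at 16 h. All KO minus WT counts and the interaction stayed 0 to 0 there.

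With the replicate block, counts were 18 in WT at 16 h, 5 in KO at 8 h, 16 in KO at 16 h, 10 from 3 h to 8 h and 11 from 8 h to 16 h, and as a random block (correlation 0.208) 17 in WT at 16 h, 14 in KO at 16 h and 8 from 3 h to 8 h. For all 24 arrays, the mean correlation with arrays of the same genotype at other times was highest for their own number. This is a hint from the data. Neither block called a member between the genotypes.

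Quantile normalization gave 1 call for KO minus WT (Rplp0), 8 in WT at 8 h and 3 from 8 h to 16 h. A common median per array gave 16 in WT at 16 h, 4 in KO at 16 h, 0 from 3 h to 8 h and 2 from 8 h to 16 h. With no filter KO at 16 h had 5, and with the 60th percentile 13, with 5 from 3 h to 8 h. Taking probe sets without the suffixes s or x first gave 7 and 9 in WT and 7 and 6 in KO at 3 h and 8 h. Means over probe sets gave 9, 10 and 15 in WT, 8, 10 and 14 in KO, and 5 from 3 h to 8 h. With only the compared groups there were 14 in WT and 5 in KO at 16 h and 5 from 3 h to 8 h. A minimum of 1.2-fold left 3 in WT at 8 h, 4 in KO at 16 h, 0 from 3 h to 8 h and 1 from 8 h to 16 h.

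Chosen after seeing the data, leaving out the 4 arrays of male type gave 4 in WT and 5 in KO at 16 h and 1 from 8 h to 16 h, and leaving out the 2 of highest background gave 16 in WT at 16 h. Shifting arrays to the median of the 157 other genes above the bright level, which lie over 1 log2 unit below the bright members in every group, turned the balance of calls from higher to lower: 24 in WT at 3 h (20 lower), 19 at 8 h (16 lower), 9 at 16 h (5 lower), and in KO 34 (30 lower), 7 (4 lower) and 10 (6 lower), with 3 from 8 h to 16 h. There Rpl10a was -0.0654 in WT and -0.122 in KO at 16 h, Rps2 -0.0051 in WT, and Rpl11 -0.0737, Rpl22 -0.0562 and Rplp0 -0.0830 in KO. That setting moves the median change of all genes in WT at 3 h from -0.142 to -0.309, while a common median moves it to 0.097, so the direction of small changes in bright members depends on the scaling. The cause of the moved counts was not tested.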
